A study of Rattus norvegicus with 2 samples.

Results

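The miRNAs miR-191, miR-423 and miR-425 are often used as references in studies of exosomes, which are small vesicles that cells release with RNA inside. All rows of the count table named for these miRNAs, on either arm, were taken, which gave 6 of 635 rows. They were mmu-miR-191-5p, mmu-miR-191-3p, mmu-miR-423-5p, mmu-miR-423-3p, mmu-miR-425-5p and mmu-miR-425-3p. The question was how far their levels and their arm balance differed between the libraries of the study. The prefix for mouse is dropped from the names below.

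The study sequenced small RNA of exosomes from primary heart muscle cells of neonatal Wistar rats aged 1 to 2 days. Cells were released from minced hearts with collagenase and trypsin, fetal calf serum was used to stop each digestion, and cardiomyocytes were enriched by differential adhesion and kept with bromodeoxyuridine, which limits dividing cells. After serum starvation, cells kept for 48 h with no addition gave NC-Exo. Cells that had Ang II at 1 μmol/L over the same 48 h gave HC-Exo. Ang II is a peptide hormone that makes cardiomyocytes grow in size. Exosomes were collected with a total exosome isolation reagent, and RNA was extracted with TRIzol and sequenced on an Illumina HiSeq after ligation of adapters to both RNA ends. There was 1 library for each condition, and the rows summed to 102608 miRNA reads for NC-Exo and 133155 for HC-Exo. Some rows hold the same counts as another row in both libraries. An example, named after its values were seen, is miR-486b-5p, with the 654 and 875 reads of miR-486a-5p. Reads may thus be counted in more than 1 row, and the sums may exceed the number of reads. Shares over all tested miRNAs or hairpins include such rows. The table uses mouse names although the cells were from rat. No replicate check was possible for any difference, so each test below compares these libraries and not the conditions.

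A miRNA is cut from a hairpin precursor whose stem has a 5p arm and a 3p arm. One arm is often loaded into Argonaute and kept, while the other is mostly degraded. The loaded strand finds its target mRNAs mainly through the seed, bases 2 to 8 from its 5′ end. A reference miRNA is one whose level is taken to be steady, so that other miRNAs can be given relative to it in qRT-PCR, where no library total exists. All of these miRNAs are broadly expressed across tissues. The 5p arm of miR-423 has been studied in blood as a marker of heart failure, and miR-425 is known to target the mRNA of atrial natriuretic peptide.

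The sequences are those of the rat strands with these names, shown with the seed each strand would use. Of the 6 rows, 5 matched a mature rat miRNA in RefSeq for the GRCr8 build, and bases 2 to 8 are in capitals. The row without a match was miR-423-3p, so its sequence is not shown and its seed was left out of the comparison below. The rows of miR-191 were matched to the rat entries of miR-191a.
miR-191-5p: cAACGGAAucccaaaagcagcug
miR-191-3p: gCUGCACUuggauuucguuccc
miR-423-5p: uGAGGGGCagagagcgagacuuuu
miR-425-5p: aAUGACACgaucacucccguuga
miR-425-3p: aUCGGGAAuaucguguccgcc
The 5 sequences have 5 different seeds. Among 724 mature rat miRNAs, the seed of miR-191-3p is also that of miR-17-2-3p, and the seed of miR-423-5p is also that of miR-3573-5p. Neither of these is named in the count table, in which 312 of 635 rows have a rat miRNA of the same name.

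The precursor of miR-423 is shown because its arm balance differed between the libraries, as described below. The annotated 5p arm is in capitals.
Mir423 hairpin: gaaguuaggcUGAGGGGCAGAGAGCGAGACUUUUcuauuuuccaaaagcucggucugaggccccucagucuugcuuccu
In GRCr8 this hairpin of 79 bases is at chr10:62412272-62412350 on the minus strand, within the bounds of the gene Nsrp1. Mir191 is at chr8:118142627-118142717 and Mir425 at chr8:118143084-118143166, both on the plus strand, 366 bases apart and within the bounds of Dalrd3. Mir191 also overlaps the miRNA gene Mir3555. The gene table gives bounds only, so exon or intron was not read from it.

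The 5p arms of miR-423 and miR-191 were the most abundant of the 6 arms in both libraries. Levels are given as reads per 1000000 miRNA reads summed over all rows (RPM). In these units 1 read was worth 9.75 RPM in NC-Exo and 7.51 RPM in HC-Exo. Single reads cover a whole mature miRNA, so no correction for length was made. Ligation and PCR take up some sequences better than others, so the order of levels is that of the reads. All intervals are exact 95% intervals (Clopper-Pearson, or conditional for a ratio of ratios) and cover counting error only, since PCR reads are not independent molecules.

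miR-423-5p had 771 NC-Exo reads and 903 HC-Exo reads, or 7514 RPM (6995 to 8062) and 6782 RPM (6348 to 7237). It was number 25 of all rows by reads in NC-Exo and number 29 in HC-Exo. miR-191-5p had 733 and 1042 reads, or 7144 RPM (6638 to 7678) and 7826 RPM (7359 to 8313), and was number 27 and number 24. Their intervals overlapped in NC-Exo. In HC-Exo miR-191-5p lay above miR-423-5p and the intervals did not overlap.

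miR-423-3p had 72 NC-Exo reads and 157 HC-Exo reads, or 702 RPM (549 to 884) and 1179 RPM (1002 to 1379). It came next by level in both libraries, and its intervals in NC-Exo and HC-Exo did not overlap. miR-425-5p had 15 and 28 reads, or 146 RPM (81.8 to 241) and 210 RPM (140 to 304). miR-425-3p had 9 and 14 reads, or 87.7 RPM (40.1 to 166) and 105 RPM (57.5 to 176). miR-191-3p had 8 and 6 reads, or 78.0 RPM (33.7 to 154) and 45.1 RPM (16.5 to 98.1). The intervals of these 3 low arms overlapped in NC-Exo. In HC-Exo miR-425-5p lay above miR-191-3p with no overlap, while the interval of miR-425-3p overlapped both.

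**Figure D1:**
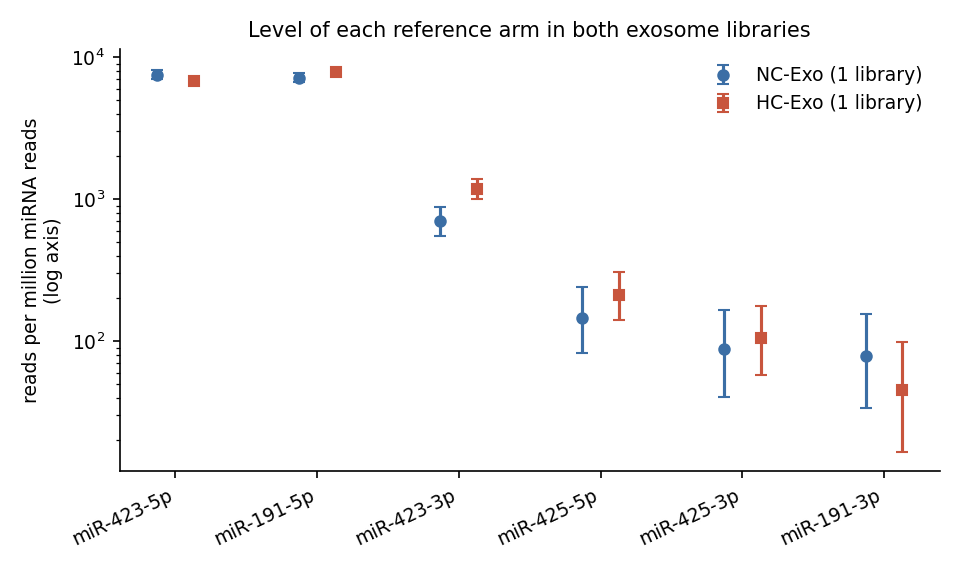
Level of each of the 6 arms in RPM on a log axis, in the NC-Exo and the HC-Exo library, with exact 95% intervals for counting error. miR-423-5p and miR-191-5p lie between 6782 and 7826 RPM in both libraries, and the intervals of miR-423-3p are apart, at 702 and 1179 RPM.

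Of the 6 arms, miR-423-3p was higher in the HC-Exo library and passed the test, at 1.68 times its NC-Exo level (1.26 to 2.25). On the log2 scale the ratio, HC-Exo over NC-Exo, was 0.75 (0.34 to 1.17), with p = 0.000231 by the two-sided exact binomial test. The adjusted p was 0.00238 by the exact binomial test with Benjamini-Hochberg adjustment over the 340 miRNAs whose reads summed to at least 10 over the libraries. Ordered by the size of the log2 ratio without its sign, from the smallest, it was number 129 of the 135 miRNAs with at least 100 reads. The call was lost in edgeR when a spread between cultures was assumed, with adjusted p = 0.197 at a coefficient of variation of 0.1. It was also lost with the upper quartile of the tested miRNAs as the scale, a choice made after seeing the data, at a log2 ratio of 0.50 and adjusted p = 0.0688 by the exact binomial test. The range of adjusted p over 8 other scalings was 0.00298 to 0.0688 for this arm.

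miR-423-5p, from the same hairpin, had a log2 ratio of the opposite sign, -0.15 (-0.29 to -0.01), and did not pass (adjusted p = 0.127, exact binomial test). This value depended on the scaling. With TMM factors the log2 ratio was -0.22 with adjusted p = 0.0173 by the exact binomial test. Over the 8 scalings it ran from -0.39 to -0.16, with adjusted p from 5.25e-07 to 0.0870. miR-191-5p had a log2 ratio of 0.13 (-0.01 to 0.27) and did not pass either (adjusted p = 0.176, exact binomial test). Its sign also depended on the scaling, since it ran from -0.12 to 0.12 over the same scalings, below 0 with the upper quartile of the tested miRNAs. In the same order by size without sign, miR-423-5p was number 35 and miR-191-5p number 32 of the 135 miRNAs.

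The intervals of the low arms were wide and included 0. The log2 ratio was 0.52 (-0.43 to 1.53) for miR-425-5p, 0.26 (-1.05 to 1.65) for miR-425-3p and -0.79 (-2.60 to 0.93) for miR-191-3p. Their adjusted p was 0.498, 0.912 and 0.632 by the exact binomial test. A change of 2 times in either direction lies inside the interval of miR-425-3p. A level 2 times as high lies inside that of miR-425-5p, and a level lower by the same factor inside that of miR-191-3p. The width of the interval on the log2 scale was 0.28 for miR-191-5p and miR-423-5p, 0.83 for miR-423-3p and 3.52 for miR-191-3p.

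**Figure D2:**
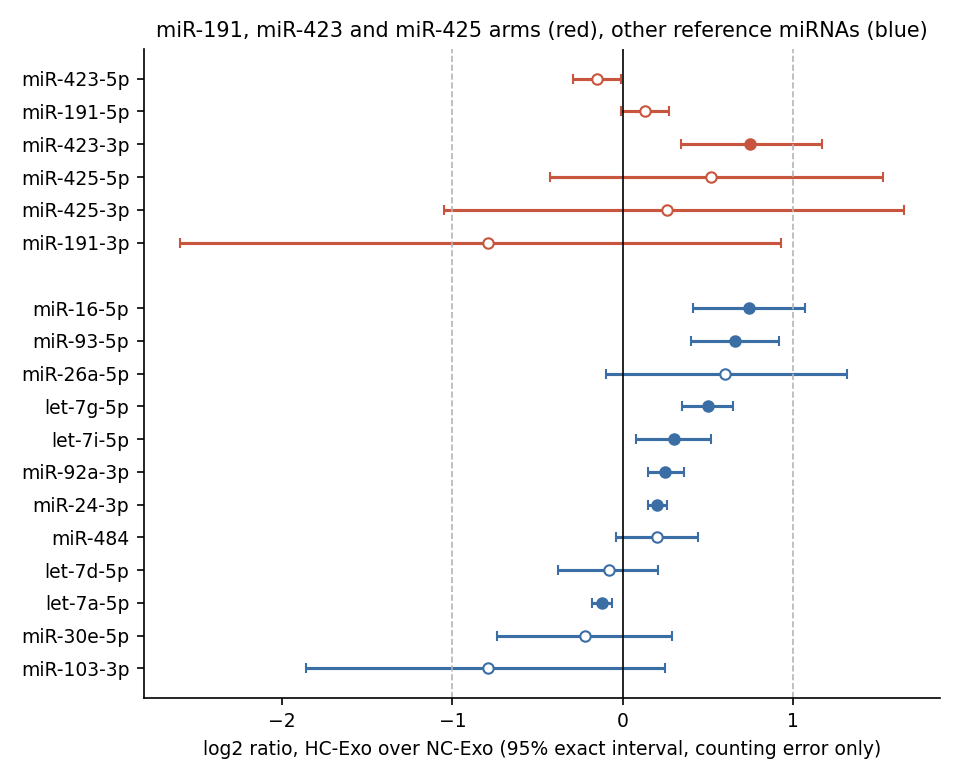
Log2 ratio, HC-Exo over NC-Exo, for the 6 arms (red) and the other reference miRNAs (blue), with exact 95% intervals for counting error, filled points where the adjusted p is under 0.05 and dashed lines at a log2 ratio of 1 in size. miR-423-3p lies at 0.75 with an interval above 0, miR-191-5p and miR-423-5p lie at 0.13 and -0.15, and the interval of miR-191-3p runs from -2.60 to 0.93.

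All 6 arms had the 10 reads needed for the test. Against the whole table, 0 of 6 arms differed by a log2 ratio of 1 or more in size, where 53 of 340 tested miRNAs did (15.6%). Over 8 other scalings miR-191-3p ran from -1.04 to -0.80, so that 1 of 6 arms was past the fold with the upper quartile of the tested miRNAs. An adjusted p under 0.05 was found for 1 of 6 arms and for 76 of 340 miRNAs (22.4%). When a spread between cultures was assumed in edgeR's exact test, at a coefficient of variation of 0.1, 0.2 or 0.4, 0 of 340 had an adjusted p under 0.05, and 55, 20 and 1 had an unadjusted p under 0.05. Every binomial call of a single miRNA given here is thus lost at each of these spreads. Among miRNAs with at least 100 reads, 0 of 3 arms and 1 of 135 miRNAs (0.741%) were past the fold, while 1 of 3 arms and 58 of 135 miRNAs (43.0%) passed the test. The median log2 ratio was 0.20 over the 6 arms and 0.10 over the 340 miRNAs, and the median size of the log2 ratio was 0.39 and 0.41. Of the 76 miRNAs with an adjusted p under 0.05, 47 were higher and 29 lower in HC-Exo by library totals. That split was 47 and 29 with the authors' normalized values and 45 and 29 with DESeq2 size factors. It was 35 higher and 35 lower with TMM factors, 24 and 38 with upper quartile factors, and 29 and 36 when the median or the totals without the 10 most abundant miRNAs set the scale. With factors from the tested miRNAs alone, chosen after seeing the data, it was 25 higher and 38 lower for TMM and 10 higher and 56 lower for the upper quartile.

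**Figure D3:**
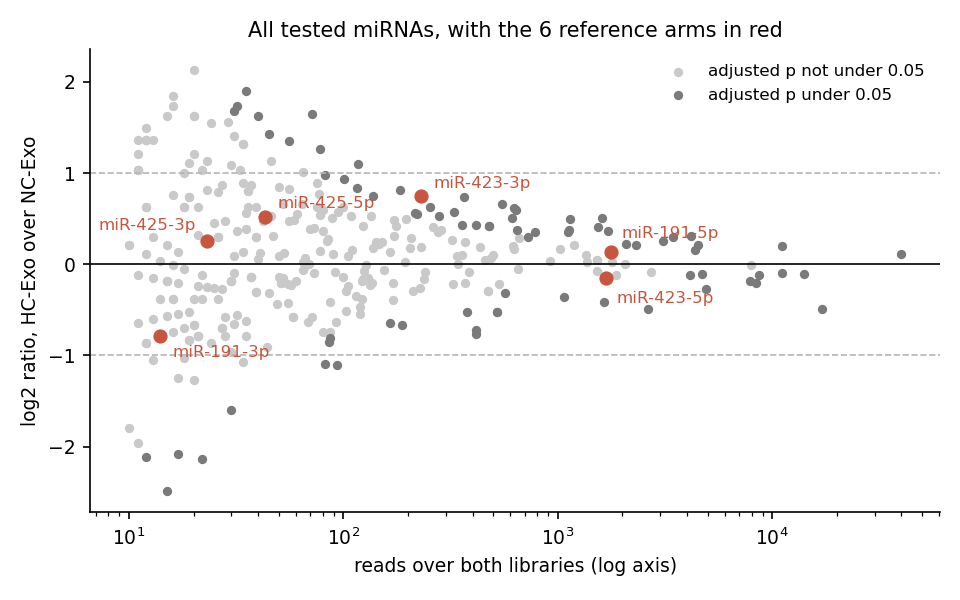
Log2 ratio, HC-Exo over NC-Exo, against the reads over both libraries, on a log axis, for the 340 tested miRNAs, with the 6 arms in red and dashed lines at a log2 ratio of 1 in size. Ratios spread widely at low reads, and past 100 reads 1 of 135 miRNAs lies beyond the lines.

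The arm balance of miR-423 shifted towards the 3p arm in the HC-Exo library. The ratio of 2 arms within a library does not depend on how that library is scaled. Of the miR-423 reads, 8.54% were from the 3p arm in NC-Exo (6.74 to 10.6) and 14.8% in HC-Exo (12.7 to 17.1). The 5p arm had 10.7 times the reads of the 3p arm in NC-Exo and 5.75 times in HC-Exo. The log2 ratio of 5p over 3p differed by -0.90 (-1.34 to -0.46), with p = 2.67e-05 by Fisher's exact test. The adjusted p was 0.00179 by Fisher's exact test with Benjamini-Hochberg adjustment over 134 hairpins with at least 20 reads over both arms and libraries. The spreads between cultures assumed in edgeR for single miRNAs were not applied to arm balances, so this call covers counting error only.

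The balance of the other hairpins was not resolved. For miR-191 the 3p arm took 1.08% of the reads in NC-Exo (0.467 to 2.12) and 0.573% in HC-Exo (0.210 to 1.24). The log2 ratio of its 5p over its 3p arm differed by 0.92 (-0.80 to 2.73), with adjusted p = 0.657 by Fisher's exact test. For miR-425 the 3p arm took 37.5% in NC-Exo (18.8 to 59.4) and 33.3% in HC-Exo (19.6 to 49.5). The difference was 0.26 (-1.45 to 1.94), with adjusted p = 1.00 by Fisher's exact test. The 5p arm thus had more reads than the 3p arm for each of the 3 hairpins in both libraries, from 1.67 times for miR-425 in NC-Exo to 174 times for miR-191 in HC-Exo.

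Of the 134 hairpins, 4 changed in arm balance (2.99%), among them 1 of the 3 reference hairpins. These 4 calls cover counting error only and were not put to an assumed spread between cultures. The other called hairpins are named here because there were so few, after their values were seen. They were miR-126a with a difference of -0.70, miR-28a with -1.10 and miR-351 with 0.92, with adjusted p of 1.40e-13, 0.0364 and 0.0364 by Fisher's exact test. miR-423 had the second smallest p of the 134 hairpins. By size of the difference without its sign, counted from the largest, it was number 41 of the 92 hairpins with reads on each arm in each library. Over these 92 hairpins the median difference was 0.16, with 40 lower and 51 higher. The share of the minor arm was higher in HC-Exo for 42 hairpins and lower for 49.

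**Figure D4:**
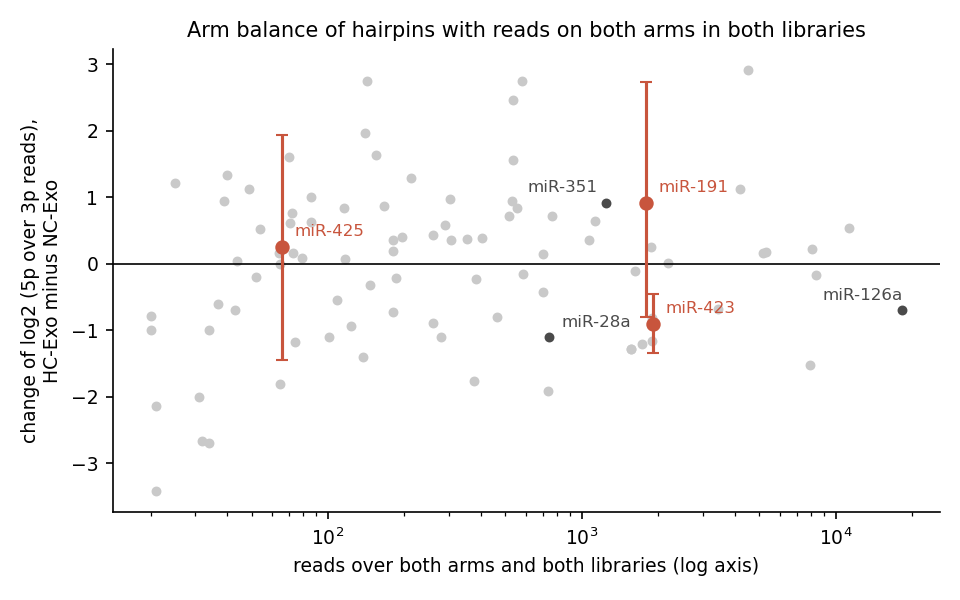
Change of the log2 ratio of 5p over 3p reads, HC-Exo minus NC-Exo, against the reads over both arms and libraries on a log axis, for 92 hairpins. The reference hairpins are in red with exact 95% intervals, and the other hairpins with an adjusted p under 0.05 are dark. miR-423 lies at -0.90 with an interval below 0, while the intervals of miR-191 and miR-425 include 0.

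Summed over both arms, miR-423 had 843 NC-Exo reads and 1060 HC-Exo reads, with a log2 ratio of -0.05 (-0.18 to 0.09). The sums, taken after the arms were seen, were 741 and 1048 reads for miR-191, with a log2 ratio of 0.12 (-0.01 to 0.26). For miR-425 they were 24 and 42 reads, with 0.43 (-0.33 to 1.22). All 6 arms together had 1608 and 2150 reads, or 15671 and 16147 RPM, with a log2 ratio of 0.04 (-0.05 to 0.14). Other scalings shift all these ratios by -0.01 to -0.25.

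Ratios between reference arms show how steady the arms were against each other. The 4 arms with at least 10 reads in each library gave 6 pairs, and the interval left out 0 in 3 of them. miR-191-5p had 0.951 times the reads of miR-423-5p in NC-Exo and 1.15 times in HC-Exo, a log2 difference of 0.28 (0.08 to 0.48). It had 10.2 times the reads of miR-423-3p in NC-Exo and 6.64 times in HC-Exo, a log2 difference of -0.62 (-1.06 to -0.18). The remaining pair of these 3 was that of the miR-423 arms. The pairs with miR-425-5p had log2 differences of -0.39 (-1.41 to 0.57) for miR-191-5p, 0.22 (-0.88 to 1.28) for miR-423-3p and -0.67 (-1.69 to 0.29) for miR-423-5p. These ratios do not depend on the library totals. That of miR-191-5p to miR-423-5p, and that of each of these to miR-423-3p, differed between libraries by more than counting error. For the pairs with miR-425-5p no difference beyond counting error was seen.

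The other miRNAs in use as references were listed by name, and 12 of 12 were tested. Of these, 6 were higher in HC-Exo and 1 was lower with an adjusted p under 0.05 by the exact binomial test, and 0 of 12 were past the fold. These 7 calls of 12 stand beside 22.4% of all 340 miRNAs and 43.0% of the 135 with at least 100 reads, and 0 were left at each assumed spread in edgeR. Their median log2 ratio was 0.23, against 0.10 over all 340 miRNAs. With the upper quartile of the tested miRNAs as the scale, 3 were higher and 1 was lower, with a median of -0.02, and 1 of 12, miR-103-3p at -1.04, was past the fold. miR-16-5p, a common reference that is abundant in red blood cells, had 115 NC-Exo reads and 249 HC-Exo reads. Its log2 ratio was 0.74 (0.41 to 1.07), with adjusted p = 5.93e-05 by the exact binomial test. For miR-93-5p, with 180 and 369 reads, the log2 ratio was 0.66 (0.40 to 0.92). For let-7g-5p, with 566 and 1040 reads, it was 0.50 (0.35 to 0.65). The remaining higher members were let-7i-5p with a log2 ratio of 0.30, miR-92a-3p with 0.25 and miR-24-3p with 0.20. Among 8 other scalings, the call of let-7i-5p was kept under 1 and that of miR-92a-3p under 5. miR-24-3p passed under 7, and its log2 ratio was -0.04 with the upper quartile of the tested miRNAs.

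The lower member was let-7a-5p, with 3964 NC-Exo reads and 4745 HC-Exo reads. Its log2 ratio was -0.12 (-0.18 to -0.06), with adjusted p = 0.00196 by the exact binomial test. miR-484 had 249 and 371 reads, with a log2 ratio of 0.20 (-0.04 to 0.44), or -0.05 on that same scale. let-7d-5p had 174 and 213 reads, with -0.08 (-0.38 to 0.21). miR-30e-5p had -0.22 (-0.74 to 0.29), miR-26a-5p 0.60 (-0.10 to 1.32) and miR-103-3p -0.79 (-1.86 to 0.25), each from at most 70 reads in a library. The abundant let-7a-5p passed with a smaller ratio than miR-423-5p, whose interval was wider.

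By log2 ratio, the nearest miRNAs with at least 100 reads were miR-542-3p (0.14) and miR-1a-3p (0.11) for miR-191-5p. For miR-423-5p they were miR-376c-3p (-0.14) and miR-3102-3p.2-3p (-0.15), and for miR-423-3p they were miR-223-3p (0.75) and miR-16-5p (0.74). This likeness is over 2 libraries only. By reads in NC-Exo, miR-145a-5p with 768 and 1011 reads stood between miR-423-5p and miR-191-5p and had a log2 ratio of 0.02 (-0.12 to 0.16). miR-328-3p stood just above miR-423-5p with a log2 ratio of 0.23, and miR-483-3p just below miR-191-5p with -0.07. Just above miR-423-3p stood miR-98-5p with 0.56. Just below it, tied at 69 NC-Exo reads, stood miR-106a-5p with 0.49 and miR-34b-3p with -0.06. Of these neighbours of miR-423-3p in level, miR-98-5p and miR-106a-5p were thus also above 0, and miR-34b-3p was below 0.

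The label of the cells was checked against miRNAs of known cell types. The cardiomyocyte list had reads for 6 of 6 members and summed to 168817 RPM in NC-Exo and 183899 RPM in HC-Exo. Its most abundant member, miR-1a-3p, was the first row of both libraries, with 16.2% and 17.5% of the reads. Of the list, 4 members had an adjusted p under 0.05 by the exact binomial test and a higher level in HC-Exo, and 0 a lower one. These stand beside 22.4% of all 340 miRNAs and 43.0% of the 135 with at least 100 reads. At each assumed spread in edgeR 0 of these calls were left. The log2 ratio of the sum was 0.12 (0.10 to 0.15), and the shift of -0.25 by the upper quartile of the tested miRNAs turns its sign. The log2 ratio of miR-1a-3p was 0.11 and took the other sign under 3 of 8 other scalings, down to -0.14. Its call as higher was kept by 3 of them, and it passed as lower at -0.14. The call of miR-499-5p was kept by 5. The endothelial list, 2 arms of miR-126a, summed to 91114 and 66817 RPM, with miR-126a-5p as the second row of both libraries. The log2 ratio was -0.49 (-0.54 to -0.45) for miR-126a-5p and 0.21 (0.04 to 0.38) for miR-126a-3p, which did not pass (adjusted p = 0.0572, exact binomial test). The 5p arm made up most of the sum, whose log2 ratio was -0.45 (-0.49 to -0.41). The list of fibroblasts and smooth muscle had reads for 4 of 4 members and summed to 36557 and 36807 RPM, led by miR-143-3p. By the exact binomial test 2 members were higher and 1 lower with an adjusted p under 0.05, beside the same 22.4% and 43.0%. At each assumed spread in edgeR 0 of these calls were left.

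The blood list had reads for 5 of 6 members and summed to 7787 RPM in NC-Exo and 8381 RPM in HC-Exo, with a log2 ratio of 0.11 (-0.03 to 0.24). Most of the sum came from 1 member, miR-486a-5p, with 654 of 799 NC-Exo reads and 875 of 1116 HC-Exo reads. The sum thus says little about the other members. miR-451a of red blood cells had 17 and 35 reads, and miR-144-3p had 0 reads in both libraries. A floor of 3 reads for a count of 0 is 29.2 RPM in NC-Exo and 22.5 RPM in HC-Exo, and the exact 95% interval reaches 36.0 and 27.7 RPM. miR-223-3p of myeloid cells rose from 43 to 94 reads, with a log2 ratio of 0.75 (0.22 to 1.31) and adjusted p = 0.0241 by the exact binomial test. This call was kept by 3 of 8 other scalings. miR-150-5p of lymphocytes had 83 and 110 reads. miR-142a-3p, found in most white blood cells, had 2 reads in each library. The other arm of its hairpin, miR-142a-5p, was not on the list and is named after its values were seen. It had 12 NC-Exo reads and 23 HC-Exo reads. The liver miRNA miR-122-5p had 14 and 16 reads. In exosomes pooled from many cells, fewer vesicles of a cell type and less of a miRNA in each cannot be told apart. The part of these other cell types in the ratios of the reference arms was not tested.

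The number of miRNAs past the fold was counted relative to each reference arm. With library totals, 53 of 340 miRNAs were past the fold, a log2 ratio of 1 or more in size, 39 higher and 14 lower in HC-Exo. The split was 25 higher and 30 lower with the upper quartile of the tested miRNAs as the scale. Relative to miR-191-5p there were 43, with 27 higher and 16 lower, and relative to miR-423-5p there were 54, with 45 higher and 9 lower. Relative to miR-423-3p there were 92, with 3 higher and 89 lower. The geometric mean of these 3 arms gave 55, with 25 higher and 30 lower. The low arms gave 75 for miR-425-5p with 13 higher and 62 lower, 57 for miR-425-3p with 24 higher and 33 lower, and 155 for miR-191-3p with 149 higher and 6 lower. Among the 135 with at least 100 reads, 1 was past the fold with library totals, 0 relative to miR-191-5p, 2 relative to miR-423-5p and 24 relative to miR-423-3p. Each reference moves every log2 ratio by its own, so these counts follow from the log2 ratios of the arms given above.

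miR-155 and miR-212-3p were also measured by qRT-PCR in this work, relative to a small nuclear RNA and not to a miRNA. Here the sequencing reads of their rows were set against each arm. The row named miR-155 without an arm had 6 NC-Exo reads and 29 HC-Exo reads, and its log2 ratio was 1.77 (0.46 to 3.33) relative to miR-191-5p, 2.05 (0.74 to 3.61) relative to miR-423-5p and 1.15 (-0.23 to 2.77) relative to miR-423-3p. miR-212-3p had 51 and 31 reads, and its log2 ratio relative to the same arms was -1.23 (-1.93 to -0.54), -0.95 (-1.65 to -0.26) and -1.84 (-2.66 to -1.04). The table also has a row miR-155-5p, named after its values were seen, with 11 and 8 reads and a log2 ratio of -0.84 (-2.35 to 0.61) by library totals. Its adjusted p was 0.456 by the exact binomial test. Its log2 ratio was -0.97 (-2.49 to 0.49) relative to miR-191-5p, -0.69 (-2.21 to 0.77) relative to miR-423-5p and -1.58 (-3.16 to -0.06) relative to miR-423-3p. How reads were assigned to the rows miR-155 and miR-155-5p is not given in the sources used here. The tested rows run in order of name, except that the row miR-155 stands between miR-434-5p and miR-450b-3p. These last rows were named after their values were seen. Why the row miR-155 stands there was not tested, so which miRNA it counts is not certain. The rows miR-155, miR-155-5p and miR-212-3p each kept their sign relative to miR-191-5p, miR-423-5p and miR-423-3p. The interval of the row miR-155 included 0 relative to miR-423-3p. It also included 0 relative to miR-425-3p (-0.35 to 3.67) and miR-425-5p (-0.33 to 3.21). The interval of miR-212-3p included 0 relative to miR-191-3p (-2.17 to 1.64) and miR-425-3p (-2.91 to 0.15). That of miR-155-5p included 0 relative to each of the low arms.

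**Figure D5:**
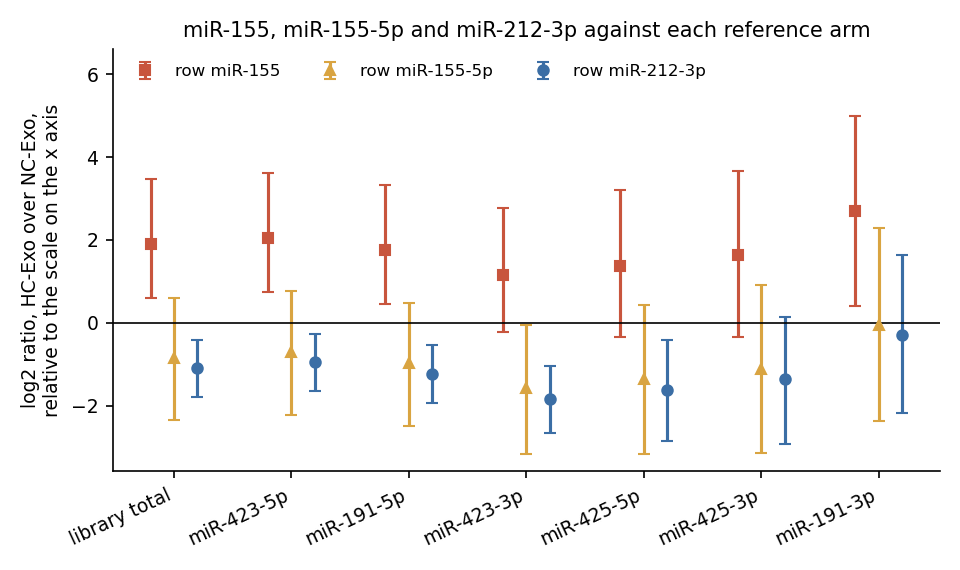
Log2 ratio, HC-Exo over NC-Exo, for the rows miR-155, miR-155-5p and miR-212-3p, relative to the library total and to each of the 6 arms, with exact 95% intervals for counting error. The row miR-155 lies above 0 and the rows miR-155-5p and miR-212-3p below 0 on every scale shown, and the intervals are widest relative to miR-191-3p, which had 8 and 6 reads.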

How the data were processed

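The authors deposited raw read counts per mature miRNA for 2 libraries, which every test used. The authors also deposited a normalized signal, worth 12.1 a read for NC-Exo and 9.23 a read for HC-Exo, in which 1 row was not its count times that factor. It was used as a scaling alternative. The submitters' processing notes name Bowtie2, mm9 and GRCm38. The authors' comparison file (scaled read counts, values named tpm, log2 fold changes, p and q values, calls) was not used. Quasi-likelihood tests need replicates and were not run. Reads were divided by library totals. miRNAs whose reads summed to at least 10 over the libraries were compared by the two-sided exact binomial test, and arms by Fisher's exact test (scipy 1.17.1), with Benjamini-Hochberg adjustment and a threshold of 0.05. Counts under 3 were raised to 3 for a ratio. Alternative factors and tests came from edgeR 4.0.16 and DESeq2 1.42.0 in R 4.3.3. The scripts were tested on simulated data. The members and lists were chosen with earlier results of these data known. Named miRNAs were all arms of the 3 hairpins, the listed references and cell type markers, the 2 nearest by log2 ratio and the neighbours in NC-Exo reads of arms with at least 100 reads, those sharing a seed, and miR-155 and miR-212-3p. Others named after their values were seen are marked as such where they appear.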

Additional observations from a re-analysis of the deposited data

How the results depend on the processing

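The settings were 8 other scalings, 3 other filters on reads and 3 assumed spreads in edgeR's exact test. Across them, 68 of 79 log2 ratios of single arms kept their direction and their side of the threshold. Of the rest, 4 lost a call, all for miR-423-3p, and 6 gained one, all for miR-423-5p. In 1, for miR-191-5p, the sign turned. The arms with few reads were not called under any setting, so the pooled number does not measure how stable the calls were. Other scalings shifted every log2 ratio by -0.01 to -0.25, by -0.12 for the upper quartile and -0.25 for the upper quartile of the tested miRNAs, which was chosen after seeing the data, as was TMM on them. The log2 ratio of miR-191-5p was -0.12 (exact binomial adjusted p = 0.268) with that last factor. For miR-423-3p it was 0.50 (adjusted p = 0.0688, exact binomial test) with it. In edgeR's exact test at coefficients of variation of 0.1, 0.2 and 0.4, miR-423-3p stayed at 0.75 with adjusted p = 0.197, 0.879 and 1.00. For miR-423-5p the exact binomial test passed at -0.22 with TMM, -0.27 with the upper quartile, -0.26 and -0.39 with these on the tested miRNAs, -0.25 with the median and -0.24 without the 10 most abundant miRNAs, with adjusted p from 5.25e-07 to 0.0173. Over all 8 scalings its adjusted p ran from 5.25e-07 to 0.0870. The number of miRNAs past the fold went from 53 to 10 with at least 10 reads in each library and to 1 with at least 100 over both, and was 67 with no filter. The number with an adjusted p under 0.05 went from 76 to 0 in edgeR at each assumed spread, where 55, 20 and 1 had an unadjusted p under 0.05. With at least 100 reads, the number past the fold went from 43 to 0 relative to miR-191-5p, from 54 to 2 relative to miR-423-5p and from 92 to 24 relative to miR-423-3p. Over all 340 miRNAs the geometric mean of these arms gave 55, against 92 for miR-423-3p. Both stricter filters test fewer miRNAs and the assumed spreads widen the test. Each scaling moves every log2 ratio by the same amount, and why the factors differ was not tested. The arm balances kept their direction and calls with other minimum reads where the hairpin met them. No spread between cultures was assumed for the arm balances. With 0.5 reads added, which was not tested, balances and pairs stayed inside their intervals. No paired analysis was possible because each condition has 1 library, and no replicate could be left out. Depth limits miR-191-3p and both arms of miR-425.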
